A study of Homo sapiens with 12 samples.

Results

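The lipoprotein lipase system was described here by 7 genes of the 23705 in the count table, named for their known function with earlier results of these data in view: *ANGPTL4*, *LPL*, *LIPG*, *LMF1*, *LMF2*, *GPIHBP1* and *VLDLR*. All 7 were found in the table by symbol. RNA was sequenced from A375 cells, an established human melanoma line, kept in every condition in the same medium with DMSO diluted 1 in 10000. Cells received the DMSO vehicle alone, 5 µM of the PPARγ agonist rosiglitazone (RGZ), 2 µM of the PPARγ antagonist T0070907, or both compounds, for 24 h. The 4 conditions were run in each of 3 independent experiments, which gave 3 libraries a condition. Technical replicates of an experiment were joined before sequencing, so that the spread below is a spread between experiments. The cells were at passages 30 to 32, and all libraries came from a single line grown without the adipocytes, muscle or endothelium in which this system usually works.

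Lipoprotein lipase (LPL) cuts the triglycerides carried by lipoproteins and so releases fatty acids that cells can take up. It folds in the endoplasmic reticulum with the help of lipase maturation factors, is secreted, is held on capillary walls by GPIHBP1, and is switched off by ANGPTL4, which unfolds it. The VLDL receptor binds the lipoproteins themselves. *ANGPTL4* is a classical target gene of the PPAR family of nuclear receptors and is also induced by hypoxia.

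The libraries held 8319455 to 11375227 counts, and levels are given as CPM, read counts relative to the library total after TMM scaling. A gene with 3 counts, taken as the detection floor, had 0.258 to 0.371 CPM depending on the library, and this floor covers counting error only. The melanocyte lineage genes *SOX10*, at 178 to 429 CPM, and *MITF*, at 24.4 to 59.6 CPM, were above the floor in all 12 libraries, as were *S100B* and *S100A1*. Of the pigment genes *PMEL* was above it in 11 libraries, *TYRP1* in 5 and *MLANA* in 2, at no more than 1.53 CPM, and *TYR* and *DCT* in none. These 9 markers summed to 291 to 532 CPM in vehicle, 239 to 458 with RGZ, 339 to 574 with T0070907 and 300 to 527 with both. Of 5 adipocyte markers, 4 stayed at or below the floor in every library, and *ADIPOQ* was at 0. The summed adipocyte markers reached 0.235 to 1.07 CPM in vehicle and 0.416 to 3.88 CPM with RGZ, with *CIDEC* the only marker of the list above the floor. Of 5 macrophage markers, *PTPRC* and *ITGAM* were at or below the floor in all libraries, *CD68*, at 33.2 to 97.3 CPM, and *CD14* were above it in 12 and *CSF1R* in 10, and the sum ranged from 36.8 to 76.4 CPM in vehicle and from 50.8 to 98.9 CPM with RGZ. The 5 endothelial markers summed to 6.36 to 8.71 CPM in vehicle and 3.01 to 5.99 CPM with RGZ. With T0070907 the sums were 0.347 to 0.627 CPM for the adipocyte, 34.9 to 70.8 CPM for the macrophage and 6.35 to 11.1 CPM for the endothelial markers, and with both compounds 0.124 to 0.964, 41 to 74 and 4.57 to 7.39 CPM. The part of these markers in the results below was not tested.

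The regions around the start sites of *ANGPTL4* and *VLDLR* are shown because *ANGPTL4* was the one gene of the system called with RGZ without the block, while *VLDLR*, the lipoprotein receptor, stayed at a near constant level with RGZ. Each window runs from 250 bases before to 50 bases after the RefSeq start on the plus strand of GRCh38.p14, at chr19:8363905-8364204 for *ANGPTL4* and chr9:2621537-2621836 for *VLDLR*. Capitals mark TATAAA, or ACGTG on either strand (read as CACGT where it lies on the minus strand).
ANGPTL4: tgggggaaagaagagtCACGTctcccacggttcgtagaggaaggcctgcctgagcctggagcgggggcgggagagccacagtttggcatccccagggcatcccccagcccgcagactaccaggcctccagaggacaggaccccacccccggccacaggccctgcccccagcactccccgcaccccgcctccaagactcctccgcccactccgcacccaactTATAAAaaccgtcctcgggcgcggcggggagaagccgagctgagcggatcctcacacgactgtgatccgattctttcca
VLDLR: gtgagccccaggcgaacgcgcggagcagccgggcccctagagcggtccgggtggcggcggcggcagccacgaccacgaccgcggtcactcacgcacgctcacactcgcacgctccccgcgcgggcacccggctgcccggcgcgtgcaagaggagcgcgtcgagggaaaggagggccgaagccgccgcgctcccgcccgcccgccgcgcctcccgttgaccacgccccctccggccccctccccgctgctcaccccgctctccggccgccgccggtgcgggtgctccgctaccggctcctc

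In the *ANGPTL4* window, TATAAA, the core of a TATA box, began 29 bases before the start, and 11.5% of the 35116 RefSeq windows of this length held it on either strand. ACGTG, the core of hypoxia response elements, lay 234 bases before the start on the minus strand, a motif found in 21.4% of windows. GGGCGG, a GC box, occurred at 186 and 50 bases before the *ANGPTL4* start and at 59 and 55 bases before the *VLDLR* start, and 45% of windows held it. The nuclear receptor half-site AGGTCA, found on either strand in 13.8% of all windows, had no match in the windows of *ANGPTL4*, *LIPG*, *LMF1*, *LMF2* and *VLDLR*, and the DR1 element, in which a single base separates 2 such half-sites, found in 0.0228%, had none either. These are the 5 genes with a window in the RefSeq table, and a missing match says only that those letters were absent from 300 bases. *LPL* and *GPIHBP1* are named only.

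*ANGPTL4* (NCBI gene 51129), the secreted inhibitor of LPL, lies on chromosome 19 at 8363289 to 8374373 of GRCh38 on the plus strand in GENCODE 29, with 7 exons in its longest transcript. In vehicle it was counted 30, 44 and 71 times in experiments 1, 2 and 3, which corresponded to 3.41, 5.24 and 8.35 CPM. With RGZ the counts were 3696, 3946 and 4422, or 384, 451 and 449 CPM. The RGZ libraries lay far above every other library, and the spread among them was small. RNA was measured in bulk, so that more cells with the transcript and more transcript per cell cannot be told apart.

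With T0070907 alone *ANGPTL4* was counted only 5, 4 and 11 times, or 0.58, 0.358 and 0.948 CPM, just above the detection floor. With both compounds the counts were 46, 103 and 388, or 5.68, 10.8 and 41.6 CPM, so that the libraries of the combination differed 7.32-fold among themselves and overlapped the vehicle libraries. The highest of the 12 values was thus an RGZ library and the lowest a T0070907 library. The order of the means was RGZ, at 428 CPM ± 37.8 (SD, n = 3), the combination, at 19.4 CPM ± 19.4, vehicle, at 5.67 CPM ± 2.5, and T0070907, at 0.628 CPM ± 0.298. Within this order, only the combination and vehicle overlapped.

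**Figure D1:**
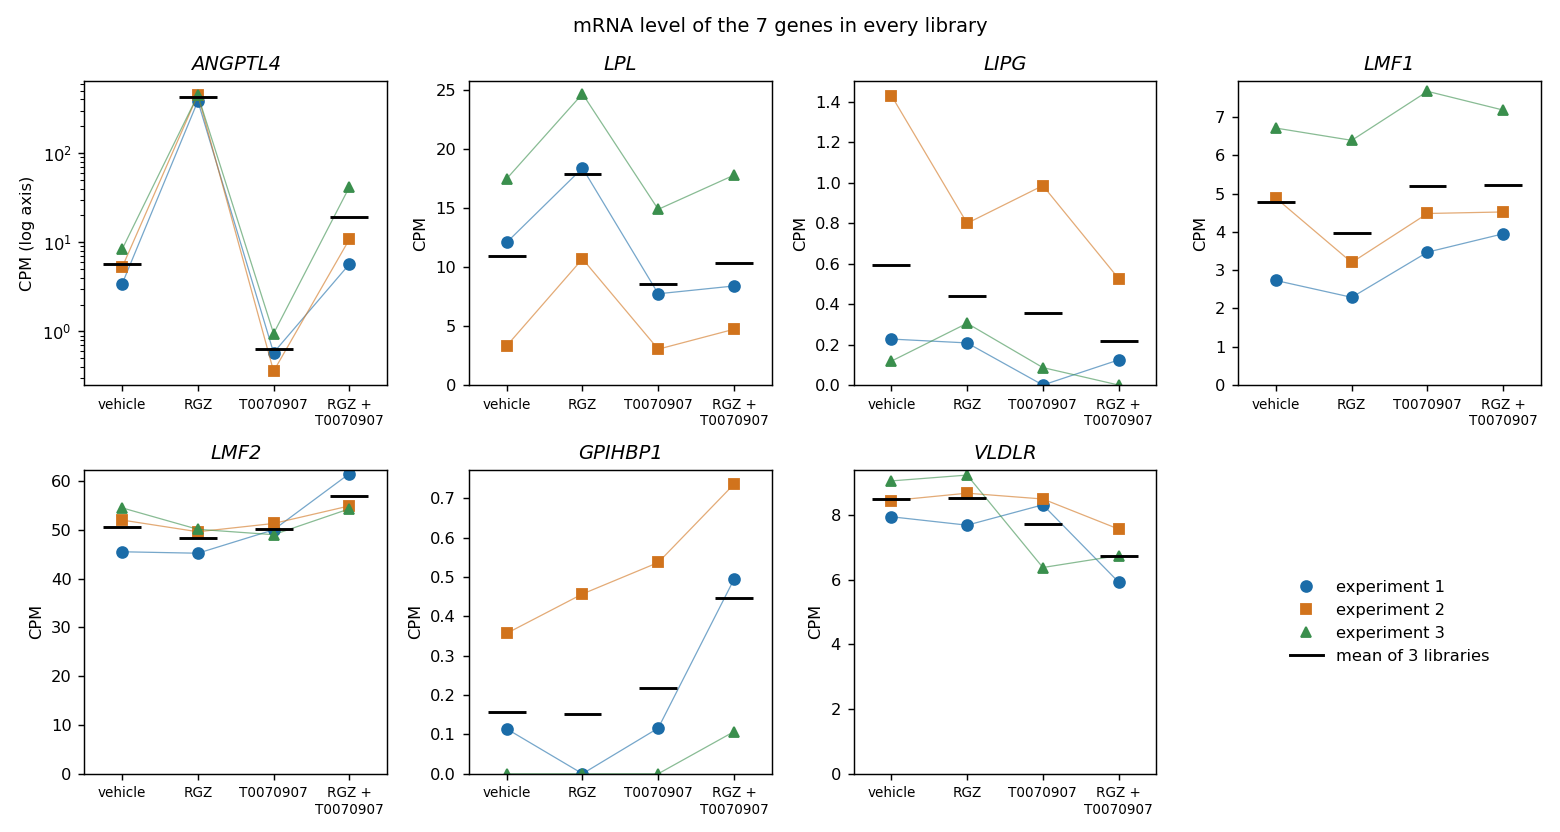
TMM-scaled CPM (vertical axes, starting at 0 except for the log axis of ANGPTL4) of the 7 genes in the 4 conditions; points are libraries, thin lines join libraries of the same experiment and bars are means of 3. ANGPTL4 runs from 0.358 to 451 CPM, LPL keeps the order of the experiments in every condition, and LIPG and GPIHBP1 stay under 1.5 CPM.

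RGZ raised *ANGPTL4* 75.6-fold over vehicle, a log2 fold change of 6.24 (SE 0.58, 95% interval 4.98 to 7.5) with an adjusted p of 0.000464 in edgeR's quasi-likelihood test, corrected by Benjamini-Hochberg over 13522 tested genes. It was the only gene among the 5 of the system that could be tested to be called at an adjusted p under 0.05, against 1.24% of all tested genes. The ratio of RGZ to vehicle was 113 in experiment 1, 86 in experiment 2 and 53.7 in experiment 3. The vehicle libraries ranged 2.45-fold, with experiment 1 the lowest and experiment 3 the highest, while the RGZ libraries ranged 1.17-fold. *ANGPTL4* was also the only 1 of the 5 whose RGZ libraries all lay above all vehicle libraries, as 9.2% of tested genes did, and 3 against 3 libraries cannot give an exact permutation p below 0.1. The call and the direction were kept in each of the 12 fits that left out a library, with log2 fold changes of 5.97 to 6.63.

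T0070907 alone left *ANGPTL4* lower than vehicle in each experiment, by 5.9, 14.6 and 8.81 times, as 16% of tested genes were lower in all 3. Further, every T0070907 library lay below every vehicle library, as was the case for 4.07% of tested genes (exact permutation p = 0.1, two-sided). The log2 fold change was -3.12 (SE 1.03, 95% interval -5.37 to -0.88), and it did not pass correction in edgeR (adjusted p = 1, unadjusted p = 0.0104). In the fit that took the experiment as a replicate block, which called 0.91% of genes and none of the 5, the adjusted p was 0.083, and DESeq2 called the gene with an adjusted p of 0.0228. No gene of the system was called in this comparison by edgeR or by limma-voom, against 0.0074% of all genes in edgeR, and 1 of the 5 had an unadjusted p under 0.05 in edgeR, against 3.1% of all genes. The value rests on 20 counts over the 3 T0070907 libraries. An antisense RNA on the other strand, *RAB11B-AS1*, shares exon sequence with *ANGPTL4* and had 41 counts over these libraries, 32 in vehicle and 44 with RGZ. Whether counting used strand is not given in the sources used here, so reads of the pair cannot be told apart at this depth.

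T0070907 given together with RGZ lowered *ANGPTL4* from its RGZ level 21.8-fold (log2 fold change -4.45, SE 0.5, edgeR adjusted p = 0.00186), and it was again the only gene of the 5 called, against 1.24% of all tested genes. The combination was below RGZ by 67.6 times in experiment 1, 41.6 times in experiment 2 and 10.8 times in experiment 3, and 20.8% of tested genes were lower in all 3. Without the combination library of experiment 3 the log2 fold change was -5.67 (edgeR adjusted p = 6.72e-06). The direction and the call were thus kept, and the fall was larger without this library.

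Set against vehicle, the combination was higher in *ANGPTL4* by 1.67, 2.07 and 4.98 times in the 3 experiments, a direction that 16.1% of tested genes held in all 3. The fitted log2 fold change of 1.79 (95% interval 0.49 to 3.09) did not pass correction in edgeR (adjusted p = 0.453, with the replicate block 0.0989), and without the combination library of experiment 3 it was 0.57. In the blocked fit, leaving out experiment 2 gave 1.99 with an edgeR adjusted p of 0.00114 in a fit that called 19.6% of all its tested genes, against 0% without experiment 1 or 3, and leaving out experiment 3 gave 0.94 with an adjusted p of 0.554. With all libraries no gene of the system was called here by edgeR, DESeq2 or limma-voom, against 0% of all tested genes in edgeR, and *ANGPTL4* was the only 1 of the 5 with an unadjusted p under 0.05, as 10.6% of all genes had.

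The response of *ANGPTL4* to RGZ with the antagonist present was measured against T0070907 alone. It was 9.84-fold in experiment 1, 30.3-fold in experiment 2 and 43.9-fold in experiment 3, and all combination libraries lay above all T0070907 libraries, as in 8.96% of tested genes. In the fit without the block its log2 fold change reached 4.92 (SE 0.85) with an edgeR adjusted p of 0.108, a comparison in which 0.037% of genes were called. There 2 of the 5 genes, *ANGPTL4* and *LMF2*, had an unadjusted p under 0.05 in edgeR, against 15% of all genes. With the block it was 4.88 (SE 0.61) and was called (edgeR adjusted p = 0.000149), against 8.76% of genes, and DESeq2 called it as well (adjusted p = 9.17e-08), whereas limma-voom without the block did not (adjusted p = 0.278). Leaving out the combination library of experiment 1 or of experiment 3 also gave a call, with log2 fold changes of 5.33 (edgeR adjusted p = 0.0176) and 3.69 (edgeR adjusted p = 0.0348).

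Side by side, the ratio of *ANGPTL4* with RGZ to that without it was 113, 86 and 53.7 from the vehicle level and 9.84, 30.3 and 43.9 from the T0070907 level in experiments 1, 2 and 3. In experiment 3 these ratios were close, and in experiment 1 they were far apart. The difference itself, tested as the interaction of both compounds, was -1.32 on the log2 scale with a 95% interval from -4.49 to 1.84 (edgeR adjusted p = 1, with the replicate block 0.741). The interval is wide enough to hold no difference as well as a response over 10 times smaller with the antagonist. Leaving out 1 library gave values from -2.55 to -0.85, and leaving out 1 experiment in the blocked fit gave -2.43 to -0.83. For the interaction edgeR, DESeq2 and limma-voom called no gene of the system, against 0% of all tested genes in edgeR, and none of the 5 had an unadjusted p under 0.05 in edgeR, as 3% of all genes had. With the block 0.281% of genes were called and again none of the 5.

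**Figure D2:**
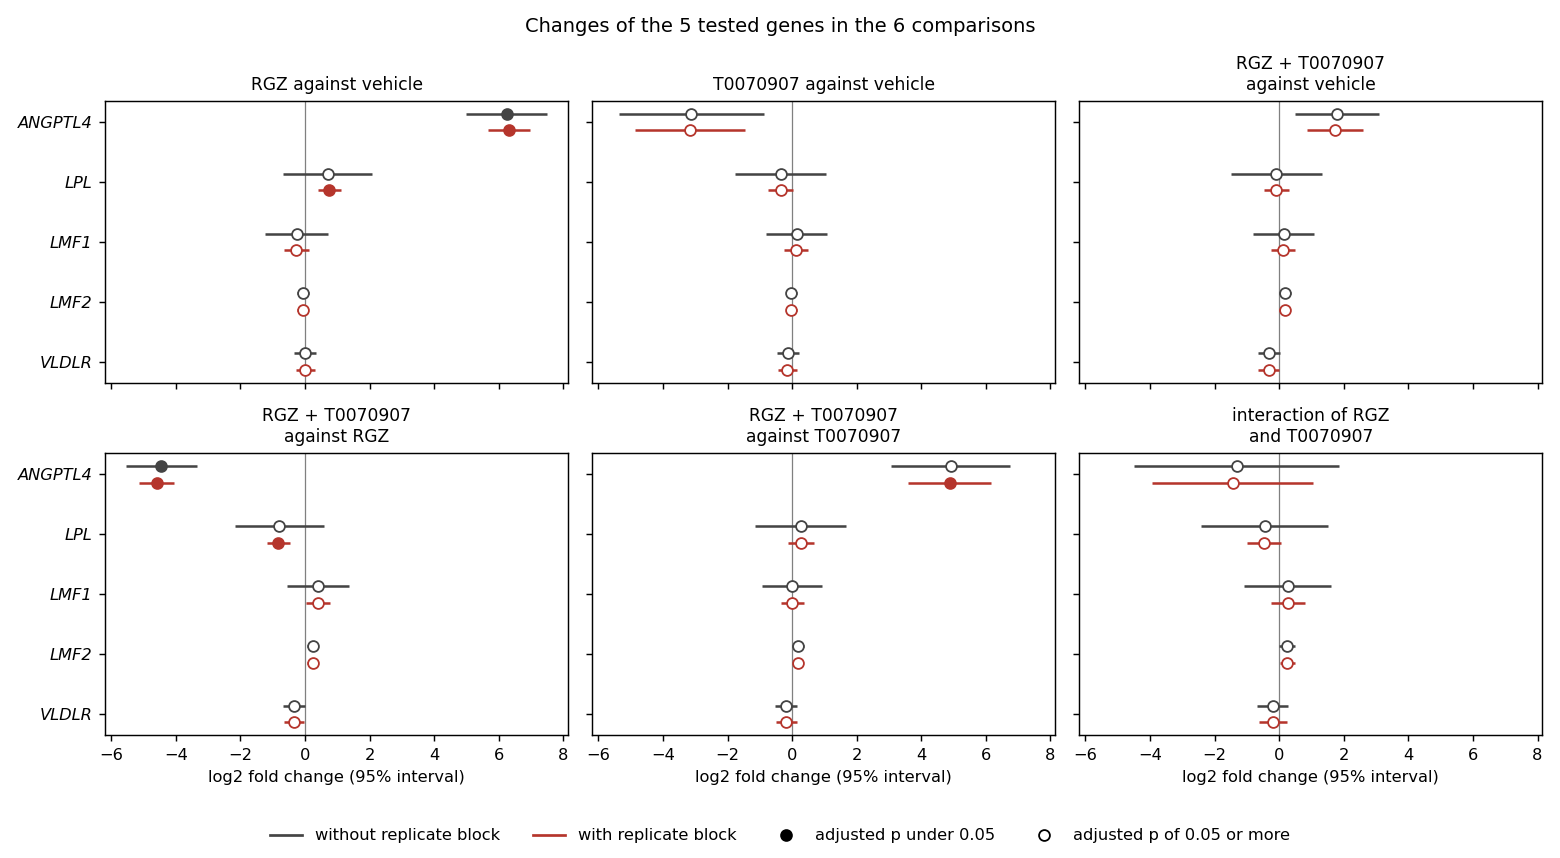
Log2 fold changes (horizontal axes) of the 5 tested genes in the 6 comparisons, with 95% intervals from edgeR without (grey) and with (red) the experiment as a replicate block; filled points have an adjusted p under 0.05. ANGPTL4 has the longest distance from 0 in the 5 direct comparisons, with 1.79 (interval 0.49 to 3.09, not called) for the combination against vehicle, the intervals of LPL narrow with the block, and LMF2 and VLDLR lie within 0.35 of 0.

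*LPL* (NCBI gene 4023), the enzyme that ANGPTL4 inhibits, lies on the plus strand of chromosome 8 at 19901717 to 19967259 of GRCh38 and has 10 exons in its longest transcript. In vehicle it was counted 107, 28 and 149 times in experiments 1, 2 and 3, or 12.1, 3.33 and 17.5 CPM. With RGZ the counts were 177, 94 and 243, or 18.4, 10.7 and 24.7 CPM. The conditions overlapped, but each RGZ library was above the vehicle library of its own experiment, by 1.51, 3.22 and 1.41 times.

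With T0070907 *LPL* was counted 67, 34 and 173 times, or 7.74, 3.04 and 14.9 CPM, and with both compounds 68, 45 and 166 times, or 8.4, 4.73 and 17.8 CPM. In all 4 conditions experiment 2 was the lowest and experiment 3 the highest, and in vehicle they differed 5.26-fold. This exceeded the ratio of any pair of conditions within an experiment.

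Without the replicate block *LPL* did not differ between RGZ and vehicle beyond this spread (log2 fold change 0.71, SE 0.63, edgeR adjusted p = 0.749). With the block the change was 0.75 (SE 0.17, 95% interval 0.39 to 1.11) and was called, with an edgeR adjusted p of 0.0079, a 1.68-fold higher level. Then 2 of the 5 genes were called, *ANGPTL4* and *LPL*, against 9.3% of all tested genes. *ANGPTL4* and *LPL* were also the 2 genes of the 5 that were higher with RGZ in all 3 experiments, as 24.6% of tested genes were. The blocked call was kept when experiment 1 (0.82) or experiment 2 (0.54) was left out, with edgeR adjusted p of 0.00723 and 0.0172. Without experiment 3 the change was 0.96 and the adjusted p, in edgeR, lay just under 0.05.

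T0070907 given with RGZ brought *LPL* down from the RGZ level in every experiment, by 2.19, 2.27 and 1.39 times, as 20.8% of tested genes were lower in all 3. The log2 fold change was -0.8 without the block (SE 0.63, edgeR adjusted p = 0.622) and -0.83 with it (SE 0.17, edgeR adjusted p = 0.00338), so that again *ANGPTL4* and *LPL* were called with the block, against 11.4% of all genes. Leaving out 1 library without the block gave values from -1.46 to -0.45. In *LPL* the combination did not differ from vehicle beyond its error, with a blocked log2 difference of -0.09 and a 95% interval from -0.48 to 0.31. T0070907 alone gave a blocked value of -0.36 (95% interval -0.76 to 0.04, edgeR adjusted p = 0.571), with *LPL* below vehicle in all 3 experiments, as 16% of tested genes were.

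Levels of different genes were compared as CPM per kb of the longest GENCODE transcript. *ANGPTL4* and *LPL* had similar mean levels in vehicle, at 3.02 CPM per kb ± 1.33 and 2.86 CPM per kb ± 1.86 (SD, n = 3), where 29.4% and 28.6% of tested genes with a known length stood at or below them. With RGZ *ANGPTL4* reached 228 CPM per kb and rank 230 of 13307, while *LPL* reached 4.66 CPM per kb. With T0070907 *ANGPTL4* was at 0.334 CPM per kb, with 3.6% of genes at or below it, and *LPL* was at 2.23 CPM per kb.

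The level of the inhibitor relative to its enzyme, in CPM per kb of each, was 0.574, 3.22 and 0.976 in the vehicle libraries of experiments 1, 2 and 3. With RGZ it was 42.8, 85.9 and 37.3, and with T0070907 it was 0.153, 0.241 and 0.13. With both compounds it was 1.38, 4.69 and 4.79, above the vehicle ratio of the same experiment each time. *ANGPTL4* transcripts thus outnumbered *LPL* transcripts in all RGZ and combination libraries, and *LPL* transcripts outnumbered *ANGPTL4* in all T0070907 libraries. Vehicle libraries lay on both sides of 1. These are ratios of mRNA, and neither protein nor lipase activity was measured here.

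**Figure D3:**
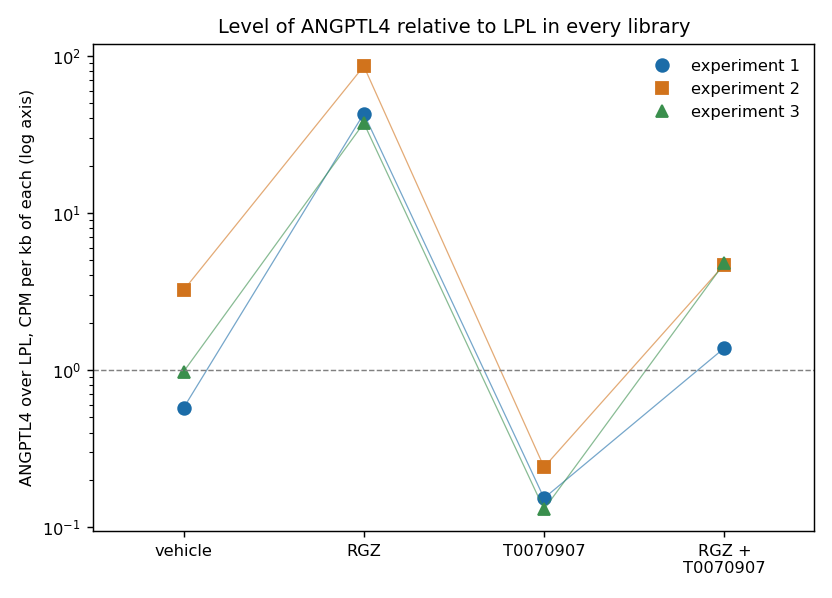
CPM per kb of ANGPTL4 divided by CPM per kb of LPL (vertical log axis) in each library of the 4 conditions; thin lines join libraries of the same experiment and the dashed line marks equal levels. RGZ libraries lie between 37.3 and 85.9, T0070907 libraries between 0.13 and 0.241.

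*LIPG* (NCBI gene 9388, chromosome 18), which encodes endothelial lipase, a relative of LPL that acts mainly on the phospholipids of HDL, was close to undetected. Its vehicle counts were 2, 12 and 1, and RGZ gave 2, 7 and 3. T0070907 gave 0, 11 and 1, and both compounds 1, 5 and 0. Only the 4 libraries of experiment 2 exceeded the floor of 3 counts. The gene was removed by the filter on low counts, and a fit without that filter gave edgeR adjusted p of 0.8 or more in all comparisons. At this depth no difference between conditions was detectable.

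*GPIHBP1* (NCBI gene 338328, chromosome 8), the protein that carries LPL across capillary endothelium and anchors it there, was similarly rare. Vehicle gave 1, 3 and 0 counts and RGZ 0, 4 and 0. T0070907 gave 1, 6 and 0 counts, and the combination 4, 7 and 1. Experiment 2 was the highest in every condition, as for *LIPG*, and 4 of the 12 libraries exceeded the floor. In the fit without the filter the lowest edgeR adjusted p was 0.733.

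*LMF1* (NCBI gene 64788, chromosome 16), the lipase maturation factor required for active LPL, was counted 24, 41 and 57 times in vehicle, or 2.73, 4.88 and 6.71 CPM. With RGZ it was at 2.29, 3.2 and 6.39 CPM, with T0070907 at 3.47, 4.48 and 7.67 CPM, and with both at 3.95, 4.52 and 7.18 CPM. The conditions overlapped, *LMF1* and *LMF2* were both lower with RGZ in all 3 experiments, as 25.7% of tested genes were, and in each condition the lowest value of *LMF1* was in experiment 1 and the highest in experiment 3, an order that differed from that of *LPL*. The gene was not called in any comparison with or without the block, and the blocked log2 fold change with RGZ was -0.27 (95% interval -0.66 to 0.12). Exons of *LMF1* overlap *LMF1-AS1* and a further gene, and its longest annotated transcript has 2 exons, so its level per kb depends on the length used, at 1.28 CPM per kb in vehicle with that transcript and 0.399 with all exons.

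*LMF2* (NCBI gene 91289, chromosome 22), the paralogue of *LMF1* whose role in lipase maturation is less well defined, was the most abundant of the 7 genes per kb in vehicle, at 19.1 CPM per kb, with at most a 1.2-fold range between the experiments of a condition. It was at 45.5, 52 and 54.5 CPM in vehicle and at 45.2, 49.6 and 50.1 CPM with RGZ. With T0070907 it was at 50, 51.3 and 49 CPM, and with both at 61.5, 54.9 and 54.3 CPM. All combination libraries were above all RGZ libraries, as in 8.62% of tested genes, and above all T0070907 libraries, as in 8.96%. The difference from RGZ was small (log2 fold change 0.24, SE 0.08) and was not called (edgeR adjusted p = 0.248, with the block 0.0673). RGZ alone gave a log2 fold change of -0.07 with a 95% interval from -0.25 to 0.11.

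*VLDLR* (NCBI gene 7436), the lipoprotein receptor, lies on chromosome 9 at 2621834 to 2660053 of GRCh38 with 19 exons in its longest transcript. It was counted 70, 71 and 77 times in vehicle, or 7.95, 8.45 and 9.06 CPM, and was at 7.69, 8.68 and 9.24 CPM with RGZ. The log2 fold change with RGZ was 0.01 with a 95% interval from -0.33 to 0.35. With T0070907 it was at 8.32, 8.5 and 6.38 CPM, overlapping vehicle.

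With both compounds *VLDLR* was at 5.93, 7.57 and 6.75 CPM, below every vehicle and every RGZ library (exact permutation p = 0.1 for each, two-sided). So were 6.57% of all tested genes against vehicle and 9.09% against RGZ, and against RGZ *ANGPTL4* was among them too. The log2 fold changes were -0.33 against vehicle (SE 0.16, edgeR adjusted p = 0.485) and -0.34 against RGZ (SE 0.16, edgeR adjusted p = 0.389), and neither was called with the block either. The antisense gene *VLDLR-AS1* overlaps its exons.

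Genes whose log2 CPM followed *ANGPTL4* most closely over the 12 libraries, among 13217 genes, were *PLIN2* (Pearson r = 0.994), *LPCAT3* (0.993), *SLC25A20* (0.992), *PDK4* (0.984) and *TSPAN12* (0.983). They were picked for this likeness out of all genes, and the 12 points share 4 conditions, so the values are a description. *PLIN2*, which coats lipid droplets, had a mean of 386 CPM in vehicle, 2370 CPM with RGZ, 176 CPM with T0070907 and 518 CPM with both. *PDK4*, a kinase that holds back glucose oxidation, was at 9.51, 62.7, 2.76 and 11.5 CPM. Both thus showed the order of *ANGPTL4*, over a narrower range. *SLC25A20*, the mitochondrial carnitine-acylcarnitine carrier, was at 29.8, 57, 23.1 and 32.7 CPM. The genes nearest to *VLDLR* were *MTMR3* (r = 0.895), *EEF2K* (0.894) and *ADCY6* (0.881).

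The surroundings of the lipase system were read from 8 lists with 72 genes, of which 46 were expressed highly enough to be tested. RGZ raised 5 of these 46 and lowered 1, against 0.947% of all tested genes called higher and 0.288% called lower by edgeR. With the replicate block 8 were higher and 7 lower, against 4.95% and 4.35%. The median log2 fold change of the 46 was 0.01 and that of all genes -0.01. Against RGZ the combination was higher in 1 of the 46 and lower in 2, against 1.24% of all tested genes called in either direction. With the block it was higher in 4 and lower in 7, against 11.4%. Without the block edgeR called none of the 46 for T0070907 or the combination against vehicle, for the combination against T0070907, or for the interaction. At an unadjusted p under 0.05 these counts were 4, 4, 7 and 5 of the 46, against 3.1%, 10.6%, 15% and 3% of all tested genes. Of these comparisons limma-voom called none of the 46, and DESeq2 called 1 for the combination against T0070907 and none for the others. The block gave 1 call for T0070907 against vehicle, against 0.91% of all tested genes, 8 for the combination against T0070907, against 8.76%, and 0 for the combination against vehicle and the interaction, against 0% and 0.281%. These blocked counts depended on single experiments. Without experiment 2 the combination against vehicle gave 8 calls among the 46 (19.6% of all genes), and without experiment 1, 2 or 3 the combination against T0070907 gave 1, 9 and 0 among 47, 46 and 45 tested (2.04%, 16.4% and 0.133% of all genes). With RGZ against vehicle the blocked fits gave 13, 13 and 8 (7.59%, 7.54% and 2.96% of all genes), and for the combination against RGZ 9, 14 and 6 (6.92%, 16.6% and 3.8%).

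**Figure D4:**
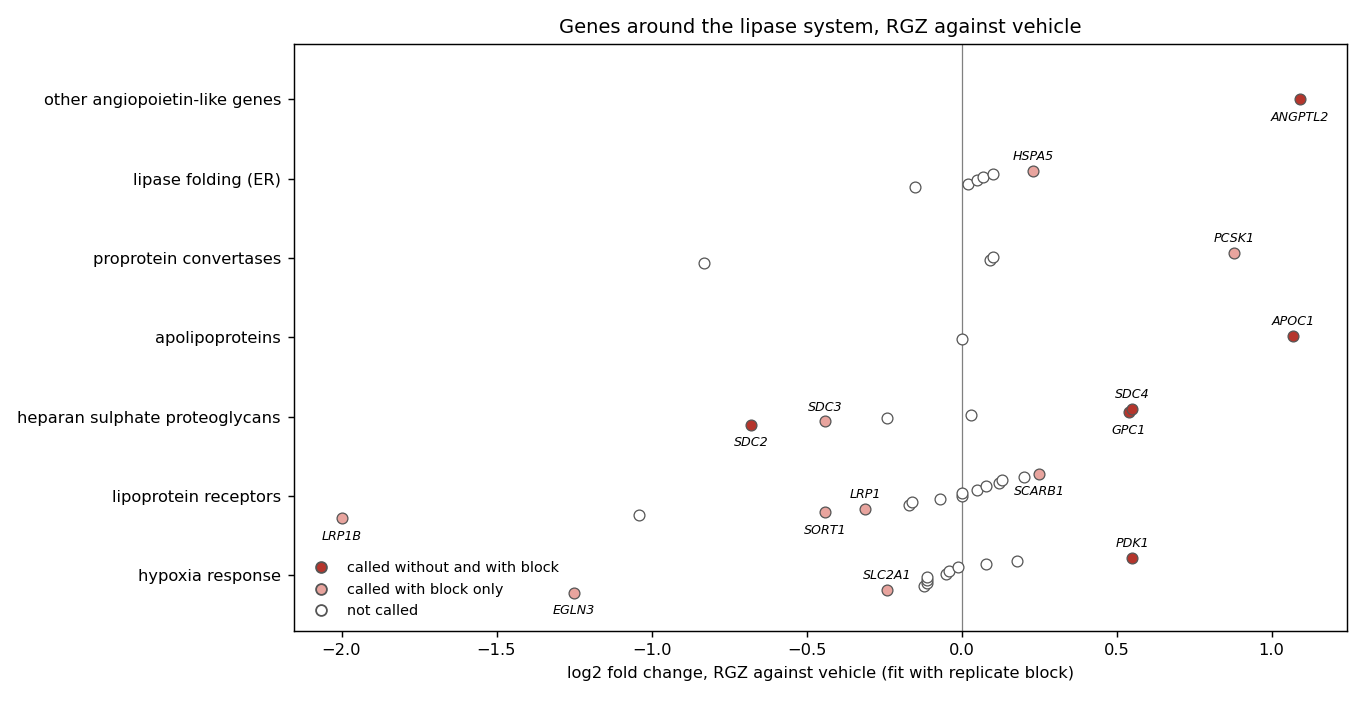
Log2 fold change of RGZ against vehicle (horizontal axis, edgeR with the replicate block) of the tested genes of 7 lists; dark red points were called without and with the block, light red points only with it, and white points were not called. ANGPTL2, APOC1, GPC1, SDC4 and PDK1 are the dark points on the right and SDC2 the one on the left.

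Among the other angiopoietin-like genes only *ANGPTL2*, a secreted relative of ANGPTL4, could be tested, since the other 6 had at most 7 counts in any library. It was at 14.4, 14.9 and 23.4 CPM in vehicle and 33.2, 30.1 and 48.6 CPM with RGZ. The groups did not overlap, as in 9.2% of tested genes, and the rise was 2.13-fold (log2 fold change 1.09, SE 0.22, edgeR adjusted p = 0.0382). With both compounds it was at 18.4, 19.9 and 26.1 CPM, and the fall from the RGZ level was called with the block only (-0.79, edgeR adjusted p = 3.15e-05, without the block 0.126), as was the rise over T0070907 alone (0.39, edgeR adjusted p = 0.0352, without the block 0.433).

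None of the 8 other lipases of the LPL family passed the filter, and the highest count among them in any library was 4. *LPL* was accordingly the only gene of that family, *LIPG* included, that could be tested in these cells. Of the 7 apolipoproteins that act on the lipases, 5 had at most 1 count in any library, including *APOC2*, the activator of LPL, and *APOA5*. *APOC1*, an inhibitor of lipoprotein clearance, was at 5.11, 5.24 and 4.82 CPM in vehicle and 8.63, 12.6 and 10.8 CPM with RGZ, a 2.1-fold rise (log2 fold change 1.07, SE 0.2, edgeR adjusted p = 0.0235). With both compounds it fell from the RGZ level in the blocked fit only (-0.61, edgeR adjusted p = 0.0176, without the block 0.2). *APOE* was at 0.706 to 1.59 CPM in vehicle and had a log2 fold change of 0.01 (edgeR adjusted p = 0.996).

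Of the 6 heparan sulphate proteoglycans, to which lipases bind at cell surfaces, RGZ raised 2 and lowered 1, against 0.947% and 0.288% of all tested genes, and with the block raised 2 and lowered 2, against 4.95% and 4.35%. *SDC4*, the most abundant of them per kb, was at 141, 153 and 159 CPM in vehicle and 209, 219 and 234 CPM with RGZ (log2 fold change 0.55, SE 0.08, edgeR adjusted p = 0.00743). With T0070907 it was at 117, 127 and 131 CPM, below every vehicle library, as in 4.07% of tested genes, and the difference was called with the block only (-0.27, edgeR adjusted p = 0.0184, without the block 1). It was not called in the blocked fits without experiment 1 or 3, which called 0 genes of the 8 lists. With both compounds it was at 136, 143 and 164 CPM, lower than with RGZ (-0.58, edgeR adjusted p = 0.00663). *SDC4* thus had the same order of RGZ, vehicle and T0070907 as *ANGPTL4*, over a far smaller range.

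*GPC1*, a glypican, rose from 47.9 CPM ± 4.27 in vehicle to 69.7 CPM ± 1.75 with RGZ (SD, n = 3), with a log2 fold change of 0.54 and an edgeR adjusted p of 0.00824. *SDC2* went the other way, from 34.5 CPM ± 4.75 to 21.5 CPM ± 2.72 (-0.68, edgeR adjusted p = 0.0418), and rose again in the combination compared with RGZ alone (0.76, edgeR adjusted p = 0.0228). *SDC3* was lower with RGZ in the blocked fit only (-0.44, edgeR adjusted p = 0.00032, without the block 0.817). Against RGZ, the combination was lower in *GPC1* (-0.33, edgeR adjusted p = 0.00475, without the block 0.0836) and higher in *SDC3* (0.38, edgeR adjusted p = 0.00119, without the block 0.796), each called with the block only. The median of the 6 genes was -0.11, and the list held changes in both directions. *GPC1* and *SDC4* with both compounds were above T0070907 alone (0.46 and 0.24) and *HSPG2* below (-0.54), each called with the block only, with edgeR adjusted p of 0.00174, 0.0153 and 0.0378 (without the block 0.117, 0.261 and 0.271).

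None of the 15 tested genes of the lipoprotein receptor list was called with RGZ by edgeR without the block, against 1.24% of all tested genes, and their median was 0. With the block 4 were called, against 9.3% of all tested genes. *SCARB1*, the HDL receptor, was higher (0.25), and *LRP1B* (-2), *SORT1*, a sorting receptor that binds LPL (-0.44), and *LRP1* (-0.31) were lower in that fit, with edgeR adjusted p between 0.00083 and 0.0462. Without the block their adjusted p ran from 0.128 to 0.838. *LRP8* was lower with the combination than with RGZ in the blocked fit (-0.24, edgeR adjusted p = 0.0428, without the block 0.263), while *LRP1B* and *SORT1* were higher (1.77 and 0.32, edgeR adjusted p = 0.0113 and 0.0114, without the block 0.177 and 0.449). Against T0070907 alone the combination was lower in *LRP1*, *LRP6* and *SORT1*, with log2 fold changes of -0.34, -0.28 and -0.25 that were called with the block only (edgeR adjusted p of 0.0319, 0.0472 and 0.0475, without the block 0.733, 0.262 and 0.551).

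The 6 genes of lipase folding and quality control, led by *CALR* at 677 CPM per kb in vehicle, included no call with RGZ without the block in edgeR and 1 with it, against 1.24% and 9.3% of all tested genes. *HSPA5*, the endoplasmic reticulum chaperone BiP, was higher with the block (0.23, edgeR adjusted p = 0.00338, without the block 0.232), also for the combination against T0070907 (0.23, edgeR adjusted p = 0.00941, without the block 0.261). Among 4 tested proprotein convertases, the enzymes that cleave ANGPTL4 and LPL, *FURIN* was the most abundant per kb and had a log2 fold change of 0.1 (edgeR adjusted p = 0.789). *PCSK1*, the 1 of these 4 called with RGZ, was higher in the blocked fit only (0.88, edgeR adjusted p = 0.0149, without the block 0.225). That fit called 9.3% of all tested genes.

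The hypoxia response was included because hypoxia also induces *ANGPTL4*. All 12 listed genes could be tested, 3 of them had a positive log2 fold change with RGZ, and the median was -0.08, against -0.01 over all tested genes. *PDK1*, which restrains pyruvate oxidation, rose from 17.4 CPM ± 0.952 to 25.5 CPM ± 2.14 (SD, n = 3, log2 fold change 0.55, edgeR adjusted p = 0.0411) and was lower with the combination than with RGZ (-0.8, edgeR adjusted p = 0.00738). *EGLN3*, an oxygen sensor (-1.25), and *SLC2A1*, a glucose transporter (-0.24), were lower in the blocked fit only (edgeR adjusted p = 0.0235 and 0.0063, without the block 0.136 and 0.151). No other of the 12 genes was called with RGZ in either fit. That made 1 call without the block, against 1.24% of all tested genes, and 3 with it, against 9.3%.

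The 6 genes of these lists called with RGZ without the block kept their calls less often than *ANGPTL4* when 1 library was left out. All 6 were also called with the block. The 12 fits without 1 library called 45 to 168 of all tested genes, against 167 with all libraries. Leaving out the vehicle library of experiment 1 ended all 6 calls, with edgeR adjusted p of 0.0523 for *SDC4* and 0.0534 for *GPC1*, which kept their calls in the other 11 of 12 fits. *APOC1* kept its call in 7 of 12 fits, losing it also without either other vehicle library or the RGZ library of experiment 2 or 3. *ANGPTL2* kept its call in 5, losing it without the vehicle library of experiment 1 or 2, the RGZ library of experiment 1 or 3, or any T0070907 library. *PDK1* kept its call in 3 and *SDC2* in 2, and both lost it without any 1 of the vehicle, RGZ or T0070907 libraries, *SDC2* also without the combination library of experiment 1. The highest adjusted p in these edgeR fits was 0.109 for *APOC1*, 0.163 for *ANGPTL2*, 0.165 for *PDK1* and 0.169 for *SDC2*. Against RGZ, *SDC4* and *PDK1* kept their fall with the combination in all 12 fits, while *SDC2* kept its rise in 8, losing it without the RGZ library of experiment 1 or 3 or the combination library of experiment 1 or 2 (highest edgeR adjusted p = 0.118).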

How the data were processed

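The authors deposited raw counts per gene of 12 libraries, with no normalization. The submitters' processing notes name the genome build hg19. The aligner, the counter and the annotation are not given in the sources used here. Condition and experiment were taken from the sample labels, and 0 columns of other samples were present. In R 4.3.3, edgeR 4.0.16 (TMM, filterByExpr, quasi-likelihood test) was fitted to all 12 libraries with 4 groups, and Benjamini-Hochberg adjusted p under 0.05 over 13522 genes was called. Standard errors are the log2 fold change divided by the square root of F. CPM are TMM-scaled. Exact permutation tests on log2 CPM were two-sided. Alternatives were DESeq2 1.42.0, limma-voom (limma 3.58.1), a block for the experiment, other filters and scalings, thinning, and leaving out libraries. The sample titles and the design text give the pairing by experiment: residuals of libraries of the same experiment correlated at a mean r of 0.554 (lowest 0.0793) and those of different experiments at -0.27. Each condition was centred on its own mean, so the second value largely follows from the first and is no separate evidence. Totals and length per kb came from the table and GENCODE 29 (known for 98.4% of tested genes). Comparisons share control libraries and are not independent. Named were all 7 genes, list genes called in either fit, the most abundant gene per list where given, and the genes nearest to *ANGPTL4* (5) and *VLDLR* (3). The 7 genes and the lists were chosen with earlier results of these data known. Some genes of the lists that this rule would name are not reported here. The edgeR, limma-voom and DESeq2 fits were first checked on simulated counts, for RGZ against vehicle only. The other comparisons and the permutation tests were not checked in this way.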

Additional observations from a re-analysis of the deposited data

How the results depend on the processing

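*ANGPTL4* kept its direction in all 5 direct comparisons and in every alternative in which it could be fitted, and its calls for RGZ against vehicle and for the combination against RGZ were kept in all 25 of them. At least 10 counts in every library removed it and left 0 genes of the system called in both comparisons. With the replicate block, in edgeR, limma-voom, thinned counts and each fit without an experiment, 2 genes were called in both comparisons, *ANGPTL4* and *LPL*. For T0070907 against vehicle DESeq2 and the blocked fits without experiment 1 or 3 called 1 gene where edgeR called 0 (the blocked fits called 0.744% and 0.074% of all genes). The blocked fit without experiment 2 called 1 for the combination against vehicle, and 19.6% of all genes. For the combination against T0070907, DESeq2, no filter, each blocked fit, and the fits without the combination library of experiment 1 or 3 called 1, all *ANGPTL4*. The block changed no other call of the 5 genes tested, and it was not tried on *LIPG* and *GPIHBP1*. Thinning gave *LMF2* 0.00 for T0070907 against vehicle with and without the block, where the value was -0.02. *LMF1* for the combination against T0070907 turned from just under 0 to 0.01 (limma-voom, edgeR with the replicate block) and 0.09 (thinned, with and without the block). Leaving out libraries turned only uncalled values. With RGZ the range was -0.05 to 0.08 for *VLDLR* and -0.8 to 0.07 for *LMF1*. With T0070907 it was -1.06 to 0.15 for *LPL*, -0.25 to 0.47 for *LMF1*, -0.09 to 0.04 (to 0.06 blocked) for *LMF2* and -0.24 to 0.03 for *VLDLR*. For the combination it was -0.76 to 0.41 for *LPL* (0.13 blocked, without experiment 1) and -0.17 to 0.46 for *LMF1* against vehicle, and -0.4 to 0.96 and -0.3 to 0.39 against T0070907. For the interaction it was -1.1 to 0.26 for *LPL* and -0.07 to 0.79 for *LMF1*. With all exons as length, *LMF1* was at 0.399 and *LMF2* at 16.6 CPM per kb in vehicle. Over all genes RGZ against vehicle gave 167 calls, 1258 with the block and 45 to 168 without 1 library. The causes of these shifts were not tested. At 8319455 to 11375227 counts per library, *LIPG* and *GPIHBP1* lay near the detection floor and were not tested, and *ANGPTL4* with T0070907 lay just above it, where few counts limit the precision of its fold changes.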
